A study of Mus musculus with 6 samples.

Results

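The genes described here encode enzymes and core subunits that write, read or remove DNA methylation and histone marks, together with a few nucleosome remodellers. A list of 49 genes was looked up by symbol in the deposited table of 12942 genes from sorted mouse liver iNKT1 cells, and all 49 were found. Invariant natural killer T cells respond to lipid antigens held by CD1d, and the iNKT1 subset requires T-bet, the product of Tbx21. The cells had been sorted as CD1d-Tetramer+ YFP+ cells. The control group had the genotype Tbx21Cre Rosa26-YFP+ and the second group (cKOHet) the genotype Tbx21Cre Ets1F/F Tbx21F/+ Rosa26-YFP+, with 3 libraries each. Both groups therefore carry the Cre from Tbx21 and the YFP reporter, so that deletion is limited to cells that have switched Tbx21 on, and cKOHet cells differ by floxed Ets1 on both alleles and floxed Tbx21 on 1 allele. The comparison asks which transcripts differ once Ets1 is removed and 1 copy of Tbx21 is floxed. No group carries either change alone, so the effects of the Ets1 and Tbx21 alleles cannot be told apart. The labels give neither the age and number of mice nor how they were pooled, while for replicate 1 of either group a column code made of 2 joined names stands in the table.

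DNA methylation is copied onto new strands by DNMT1 with its partner UHRF1, laid down afresh by DNMT3A, and removed stepwise through oxidation by TET enzymes. Polycomb repressive complexes 2 and 1 place the repressive marks H3K27 methylation and H2A ubiquitin, H3K9 methyltransferases mark silent chromatin, and MLL-family enzymes place H3K4 methylation at promoters and enhancers. Acetyltransferases such as p300 and CBP mark active regulatory elements and deacetylases reverse this. In T cells, several of these enzymes are known to hold lineage genes open or closed as effector subsets form.

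The normalised read counts summed to between 4996523 and 5219483 per library, and the original depth is unknown. Ets1 was at 6255 to 7787 in controls and 441 to 596 in cKOHet libraries, which checks the labels, and Tbx21 was at 2568 ± 174 and 2206 ± 98.5 (limma adjusted p = 0.196). All 10 T cell and iNKT1 markers were found, and none of the 6 B cell and 6 neutrophil markers was among the genes analysed here. All 9 macrophage and Kupffer cell markers were found at low levels, summing to 29.2 to 88.1 in controls and 147 to 207 in cKOHet libraries. All 8 hepatocyte markers were found, with sums of 222 to 409 in controls and 266 to 672 in cKOHet libraries. Most of each sum was Alb (141 to 303 in controls, 219 to 519 in cKOHet libraries). Only Alb and Apoa1 were high enough to test, and neither was called. Of the rest, Apoa2, Fgb and Trf were lower in every cKOHet library than in any control, and Ttr, Serpina1a and Apob overlapped. Of 6 dendritic cell markers, 2 were found (Xcr1 and Itgax, 109 to 147 in all in controls and 286 to 330 in cKOHet libraries), and of 6 endothelial markers 3. Of these 3, Pecam1 fell from 196 ± 23.9 to 43.5 ± 7.48. Stab1, high enough to test only through the cKOHet libraries, rose from 5.51 ± 3.63 to 30.8 ± 14.8. Stab2, too low to test, was at 1.60 ± 1.87 and 6.64 ± 5.68. Of 6 erythroid markers 1 was found, Hba-a1, at 0.057 or less in controls and 7.40 to 33.2 in cKOHet libraries. The CD8 gene Cd8a rose (10.7 to 20.1 in controls, 237 to 1657 in cKOHet libraries), and Cd8b1 was not called, at 3.56 to 31.5 and 13.6 to 35.4 (adjusted p = 0.607). The part of these markers in the results below was not tested. Replicate 4 of each group lacked Xist (1.17 or less, against 4337 to 5657 in the other 4 libraries) and expressed the Y-linked genes Kdm5d and Uty, so both groups held 2 libraries of one sex pattern and 1 of the other. As the libraries are bulk, fewer cells making a transcript and less transcript per cell cannot be told apart.

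Of the 49 genes, 9 passed the test, 6 higher and 3 lower in cKOHet libraries. A gene is called here when its limma p-value, adjusted over all 11226 genes tested, is under 0.05. Kdm7a, Setdb1, Hdac4, Dnmt3a, Ep300 and Ehmt2 rose, and Kdm6b, Kat2a and Kdm5a fell. The share called was 18.4%, beside 21.4% of all genes tested (11.5% higher and 9.97% lower), a share near that background. The groups did not overlap at 12 of the 49 genes (24.5%), beside 35.8% of all genes tested. The median log2 fold change was 0.054 for the 49 genes and 0.0073 for all genes, and the median size of the change, sign ignored, was 0.18 and 0.30. The sign of the median of the 49 depended on the processing. It was -0.049 after correction for GC content and length (all genes -0.050) and -0.065 in the libraries with Xist alone (all genes 0.0070). Only Kdm7a and Kdm6b, 2 of the 49, were called with a change of at least 2-fold, beside 1173 of all 11226 genes tested. Of the 40 genes not called, 39 had a 95% interval within 2-fold in either direction and 31 within 1.5-fold, the exception at 2-fold being Tet1.

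**Figure D1:**
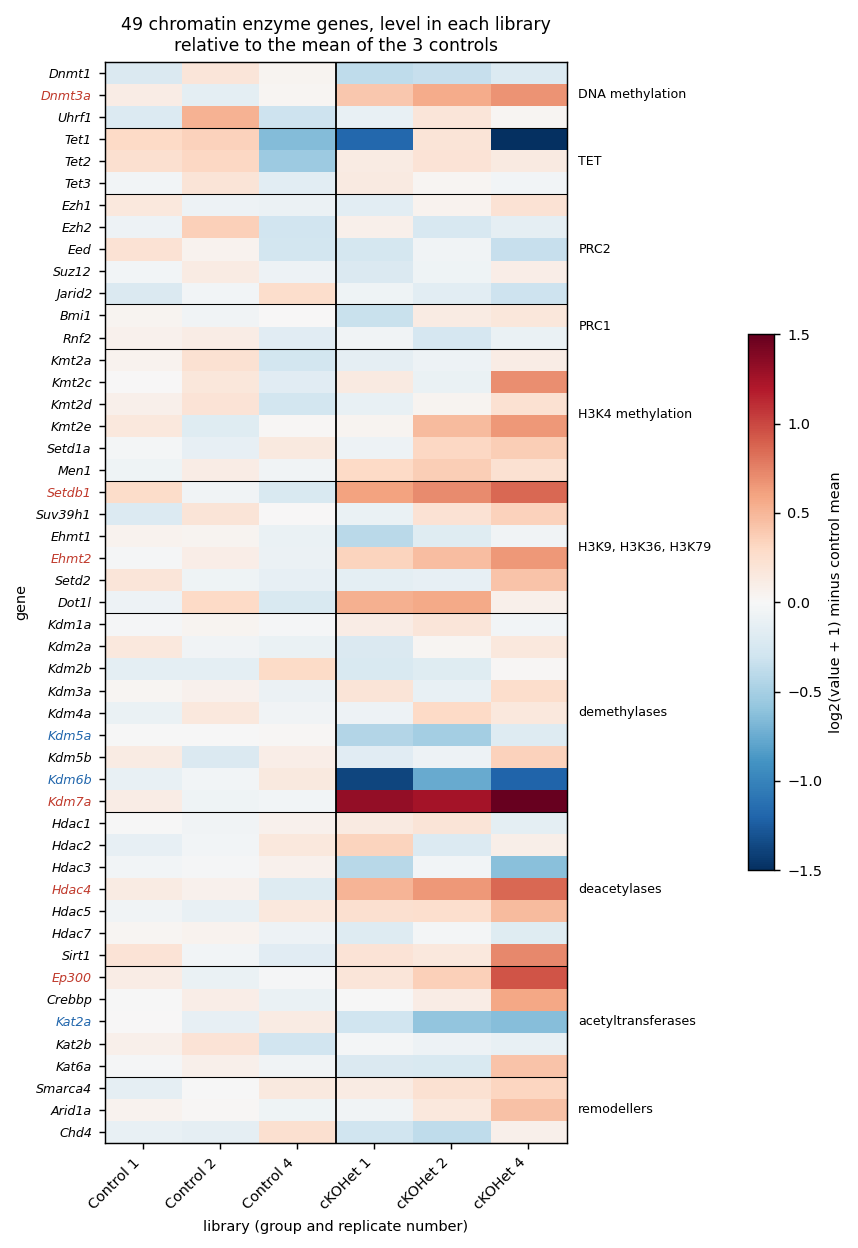
Level of each of the 49 genes (rows, ordered by role, with red names called higher and blue names called lower) in each library (columns), as log2(value + 1) minus the mean of the 3 controls; the colour scale ends at 1.5 in either direction. Kdm7a is high and Kdm6b low in all 3 cKOHet libraries, and most other rows stay pale, with more red in cKOHet replicate 4 than in replicates 1 and 2.

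**Figure D2:**
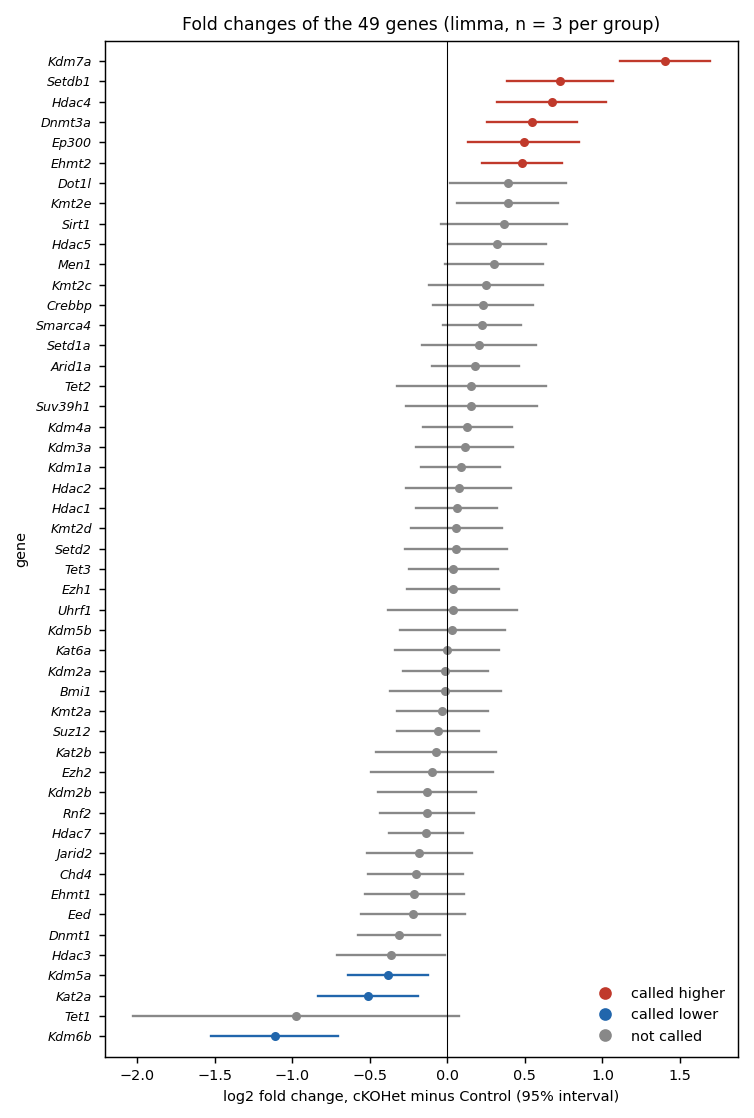
Log2 fold change of each gene (dots) with its 95% interval (lines) from limma, cKOHet minus Control, 3 libraries per group. Kdm7a at 1.40 and Kdm6b at -1.11 lie at the ends, and the interval of Tet1 is the widest.

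One library stood out for these genes. Within the cKOHet group, replicate 4 held the highest value for 30 of the 49 genes, replicate 2 for 12 and replicate 1 for 7. The 49 genes took 0.762% of all normalised reads there, against 0.637% to 0.693% in the other 5 libraries. This went with transcript length: replicate 4 was highest of its group for 20 of the 25 listed genes with exons over 8 kb and for 10 of the 24 shorter ones. Over all genes tested it was highest for 61.0% of those over 8 kb and 31.4% of those up to 8 kb, so the listed genes shared a pattern seen across the whole table. Among the called genes over 8 kb, correction for GC content and length moved Kdm7a to 1.25, Dnmt3a to 0.38, Hdac4 to 0.52 and Kdm5a to -0.57 on the log2 scale, all still called (adjusted p = 1.57e-06, 0.0405, 0.0196 and 0.00103), and Ep300 to 0.35 (adjusted p = 0.0865). Without cKOHet replicate 4, Kdm7a, Setdb1, Hdac4, Dnmt3a, Ehmt2, Kdm6b and Kdm5a were still called. In the 2 libraries per group with Xist alone, Kdm7a (1.26), Kdm6b (-0.99) and Kdm5a (-0.47) were called (adjusted p = 0.000228, 0.018 and 0.0279), and the other 6 kept their sign with adjusted p-values of 0.0559 to 0.267.

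Per length, the remodeller subunit gene Chd4 was the most abundant of the 49 in controls, at 381 normalised read counts per kb of exon, followed by Hdac1 (310), Dnmt1 (259), Hdac7 (221) and Arid1a (215). The least abundant were Tet1 (3.19), Tet2 (8.98), Hdac4 (12.4) and Dnmt3a (21.8). These levels use the merged exons of all annotated isoforms, which lowers the value of genes with long unused exons. In cKOHet libraries Kdm7a moved from place 39 to place 13 in this order and Kdm6b from place 31 to place 47, while Chd4 and Hdac1 stayed first and second at 331 and 325 per kb. Ehmt2 moved from place 7 to place 3.

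**Figure D3:**
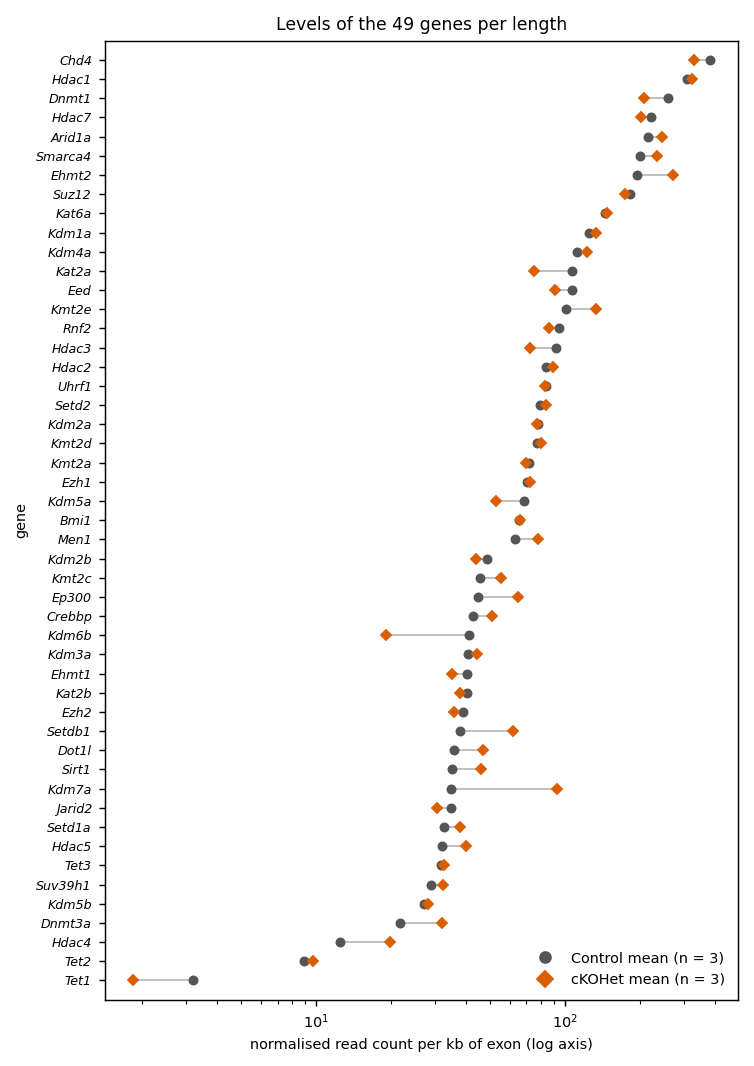
Mean normalised read count per kb of exon of each gene (log axis) in Control (circles) and cKOHet libraries (diamonds), joined by a line, ordered by the control level. The long lines are those of Kdm7a, Kdm6b, Tet1, Setdb1 and Hdac4, and most pairs of symbols nearly touch.

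Among the DNA methylation genes, the de novo methyltransferase gene Dnmt3a rose and the maintenance genes were not called. Dnmt3a (ENSMUSG00000020661, mm10 chromosome 12, 3806007 to 3914443) was at 391, 328 and 370 in control replicates 1, 2 and 4 and at 481, 535 and 579 in cKOHet replicates 1, 2 and 4. Every cKOHet library was above every control, and limma gave a log2 difference of 0.55 (SE 0.14, adjusted p = 0.00886), and the call ended without the mean-variance trend (adjusted p = 0.0519). Dnmt1 was at 1634, 2149 and 1952 in controls and 1461, 1492 and 1645 in cKOHet libraries. Its groups overlapped, as cKOHet replicate 4 lay just above control replicate 1, and its log2 fold change of -0.31 did not pass (adjusted p = 0.0941), although it did after correction for GC content and length (-0.38, adjusted p = 0.0196). Uhrf1, which guides DNMT1 to hemimethylated sites, was at 298, 494 and 276 in controls and 319, 390 and 351 in cKOHet libraries (log2 0.04, adjusted p = 0.93). Control replicate 2 held the highest value of both Dnmt1 and Uhrf1 and also the highest sums of cell cycle genes, a link that was not tested. Dnmt1 was also high in control replicate 4 (1952), where the cell cycle sums were near those of control replicate 1. The summed level of 14 mitosis genes was 3724 in control replicate 2, against 1879 and 1925 in the other controls and 2223 to 2607 in cKOHet libraries. The summed level of 16 replication genes was 12044 there, against 9171 and 9233 in the other controls and 8576 to 9756 in cKOHet libraries. Of these 30 cell cycle genes, the replication genes Mcm4 and Cdt1 were the only ones called, both lower. The share called was 12.5% of the 16 replication genes and 0% of the 14 mitosis genes, beside 21.4% of all genes tested. Among the 16 replication genes, 8 had positive and 8 negative log2 fold changes.

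None of the 3 TET genes was called. Tet1 was low, with control values of 58.3, 60.0 and 29.6 and cKOHet values of 20.2, 53.8 and 11.5. Its cKOHet replicate 2 lay among the controls, and the log2 fold change of -0.98 did not pass (95% interval -2.03 to 0.07, adjusted p = 0.188), and its size moved with the library left out: it was -1.56 without that library (adjusted p = 0.0313) and -0.50 without cKOHet replicate 4 (adjusted p = 0.542). Tet2, the member often mutated in blood cancers, was at 152 ± 44.4 and 163 ± 4.64 (log2 0.16, adjusted p = 0.698). Tet3, the most abundant of the 3 per length at 31.9 per kb in controls, was at 532 ± 67.5 and 545 ± 34.3 (log2 0.04, adjusted p = 0.884).

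No Polycomb gene on the list was called, in either complex. The methyltransferase gene Ezh2 was at 242, 327 and 208 in controls and 269, 216 and 231 in cKOHet libraries, and its paralog Ezh1 at 584, 497 and 493 and at 468, 540 and 610. Both groups overlapped widely for each (adjusted p = 0.773 and 0.896). Ezh2, like Uhrf1, was highest in control replicate 2. The core subunit genes Eed (log2 -0.22) and Suz12 (-0.06) and the accessory subunit gene Jarid2 (-0.18) had adjusted p-values of 0.369, 0.791 and 0.479. Of the Polycomb repressive complex 1 genes, Bmi1 was at 260 ± 8.48 and 261 ± 47.4 and Rnf2, which encodes a ubiquitin ligase, at 391 ± 39.6 and 356 ± 25.8. The 95% intervals of the 7 genes reached from -0.56 to 0.34 on the log2 scale, so changes of 1.5-fold or more lie outside all of them.

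The 6 genes of H3K4 methylation were not called either, and 5 of them had positive values, beside 5699 of all 11226 genes tested. In the libraries with Xist alone, Kmt2c and Kmt2d were negative (log2 -0.06 and -0.17), while Kmt2e, Setd1a and Men1 stayed positive. Kmt2d was also negative after correction for GC content and length (log2 -0.11). Kmt2e, an MLL-family gene without known methyltransferase activity of its protein, was at 1173, 924 and 1061 in controls and 1075, 1461 and 1647 in cKOHet libraries. Replicates 2 and 4 of the cKOHet group were above all controls and replicate 1 was not (log2 0.39, adjusted p = 0.0867). The log2 difference was 0.57 without that replicate (adjusted p = 0.0105), 0.26 without cKOHet replicate 4 (adjusted p = 0.301) and 0.25 after correction for GC content and length (adjusted p = 0.222). Men1, which encodes the MLL partner menin, did not overlap between groups, at 231, 262 and 234 against 297, 312 and 283, but missed the threshold (log2 0.30, adjusted p = 0.182). The MLL genes Kmt2a (log2 -0.03), Kmt2c (0.25) and Kmt2d (0.06) and the SET1 gene Setd1a (0.20) had adjusted p-values of 0.357 or more. Kmt2c reached 1492 in cKOHet replicate 4, against 815 to 1033 in the other 5 libraries. Of the exons of Setd1a, 51.8% are shared with an annotated same-strand gene, Gm49388, so its value is uncertain.

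Of the methyltransferases for H3K9, H3K36 and H3K79, the H3K9 genes Setdb1 and Ehmt2 rose. Setdb1 (ENSMUSG00000015697, chromosome 3, 95323525 to 95357202), whose product helps to silence endogenous retroviruses, was at 310, 247 and 219 in controls and 390, 420 and 465 in cKOHet libraries. All 3 cKOHet values were above the controls (log2 0.73, SE 0.16, limma adjusted p = 0.00383). Ehmt2 (ENSMUSG00000013787, chromosome 17, 34898469 to 34914052), which encodes the H3K9 dimethylase G9a, was at 1050.5, 1147 and 1007 in controls and 1343, 1471 and 1670 in cKOHet libraries, again without overlap (log2 0.48, SE 0.12, adjusted p = 0.00926; adjusted p = 0.0775 without the mean-variance trend). Its partner gene Ehmt1 was not called and had the opposite sign, at 342, 339 and 306 against 247, 290 and 316 (log2 -0.21, adjusted p = 0.366). Suv39h1, an X-linked H3K9 trimethylase gene, was at 132, 174 and 152 against 141, 177 and 194 (adjusted p = 0.649). Setd2, the H3K36 trimethylase gene, was at 968, 815 and 781 in controls and 770.5, 783 and 1143 in cKOHet libraries (log2 0.05, adjusted p = 0.859). Dot1l, the H3K79 methyltransferase gene, was at 292, 379 and 261 and at 445, 454 and 323. Its cKOHet replicate 4 lay within the controls, and the log2 fold change of 0.39 (adjusted p = 0.138) was 0.55 without that library (adjusted p = 0.0437).

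The histone demethylase genes held both of the changes of at least 2-fold, in opposite directions. Kdm7a (ENSMUSG00000042599, chromosome 6, 39136623 to 39206789) encodes a demethylase of H3K9 and H3K27 dimethylation and rose the most of the 49. Its control values were 379, 334 and 341.5 and its cKOHet values 878, 836 and 1093. The lowest cKOHet library was over 2-fold above the highest control, and the log2 difference was 1.40 (SE 0.14, 95% interval 1.11 to 1.69, limma adjusted p = 2.37e-06), or 2.64-fold. Kdm6b (ENSMUSG00000018476, chromosome 11, 69398508 to 69413675) encodes JMJD3, a demethylase of H3K27 trimethylation that is induced on activation in several immune cells, and fell the most. Its control values were 263, 277 and 315 and its cKOHet values 109, 168 and 123, with no overlap (log2 -1.11, SE 0.19, 95% interval -1.52 to -0.70, adjusted p = 0.000576), or 2.16-fold lower. Both calls were kept under all 21 alternatives. Of 10 immediate early genes tested, which are also induced on activation, Egr1 and Nr4a1 rose, Jund was called lower and 7 were not called. The groups overlapped for Jund, at 737 to 2349 in controls and 511 to 1223 in cKOHet libraries (limma adjusted p = 0.0475). The share called was 30%, beside 21.4% of all genes tested, and a link to Kdm6b was not tested.

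Kdm5a (ENSMUSG00000030180, chromosome 6, 120364124 to 120444574), an H3K4 demethylase gene, was nearly constant in controls, at 966, 961 and 978, and stood at 713, 682 and 844 in cKOHet replicates 1, 2 and 4. The groups did not overlap and it was called lower (log2 -0.38, SE 0.12, adjusted p = 0.0344), but among single libraries left out the call held only for cKOHet replicate 4 (adjusted p 0.084 to 0.134 and log2 -0.39 to -0.32 for the other 5), and it was lost without the mean-variance trend (adjusted p = 0.127). Its paralog Kdm5b was at 451 ± 57.1 and 464 ± 93.0 (adjusted p = 0.924). The other demethylase genes, Kdm1a (LSD1), Kdm2a, Kdm2b, Kdm3a and Kdm4a, had log2 fold changes between -0.13 and 0.13 and adjusted p-values of 0.557 or more. The X-linked demethylase gene Kdm6a, outside the list, followed Xist and not the group: it was at 604 to 659 in the 4 libraries with Xist and at 263 and 384 in the other 2. Its Y-linked counterpart Uty was at 176 and 196 in those 2.

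The start-site regions of the genes were read from RefSeq sequences on GRCm38.p6, where 42 of the 49 genes had an entry and Kmt2e, Kdm2a, Kdm5a, Kdm6b, Hdac1, Hdac3 and Kat6a had none. The 250 bases before each start were searched on both strands for the Ets-type words CCGGAAGT and CCGGAA, the shorter contained in the longer, and for the T-box word AGGTGTGA. The long Ets word and the T-box word were in none of the 42 genes' regions, against 7.76% and 0.859% of the 8269 tested genes with an entry. The short Ets word was in 9 of the 42 genes (21.4%), against 28.3% of those 8269 genes and 12% of all 32851 regions. It was in the uncalled genes Arid1a, Dot1l, Hdac7, Jarid2, Kdm2b, Kdm3a and Kmt2a. Of the 7 called genes with an entry, it was absent from Dnmt3a, Ehmt2, Ep300 and Hdac4, which rose, and from Kat2a, which fell. Kdm7a and Setdb1 held it. Their regions are printed 5′ to 3′ on the gene's strand because they belong to the members with the largest rise and the lowest adjusted p among the called methyltransferases, with the short Ets word or its reverse complement in capitals, beside that of Kat2a, a gene that fell and holds none.
Kdm7a (chr6:39206774-39207023, minus strand): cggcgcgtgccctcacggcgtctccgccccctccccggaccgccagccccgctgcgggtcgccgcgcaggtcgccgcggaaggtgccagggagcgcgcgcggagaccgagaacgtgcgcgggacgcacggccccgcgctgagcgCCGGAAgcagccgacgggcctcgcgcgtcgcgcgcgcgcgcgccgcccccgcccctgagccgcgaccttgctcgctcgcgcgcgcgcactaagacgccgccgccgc
Setdb1 (chr3:95357203-95357452, minus strand): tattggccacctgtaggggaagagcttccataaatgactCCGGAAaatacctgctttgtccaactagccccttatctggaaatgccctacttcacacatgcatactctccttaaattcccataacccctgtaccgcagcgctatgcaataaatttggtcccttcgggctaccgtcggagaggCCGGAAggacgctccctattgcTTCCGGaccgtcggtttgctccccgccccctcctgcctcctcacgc
Kat2a (chr11:100712468-100712717, minus strand): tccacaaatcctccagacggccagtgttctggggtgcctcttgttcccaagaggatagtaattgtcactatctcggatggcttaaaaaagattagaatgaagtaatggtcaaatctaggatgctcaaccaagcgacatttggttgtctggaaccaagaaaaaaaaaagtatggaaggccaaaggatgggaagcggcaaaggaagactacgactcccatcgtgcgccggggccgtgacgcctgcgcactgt
Setdb1 held 3 copies, starting 211, 68 and 46 bases before the start, and Kdm7a 1 copy, 106 bases before it. The Kdm7a region had 56 CpG dinucleotides in 250 bases, the Setdb1 region 13 and the Kat2a region 11. A match describes the letters and is not a bound site.

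Among the 7 deacetylase genes, Hdac4 rose and the other 6 were not called. Hdac4 (ENSMUSG00000026313, chromosome 1, 91928779 to 92195699), a class IIa deacetylase gene whose protein shuttles between nucleus and cytoplasm, was at 214, 205 and 171 in controls and 279, 309 and 356 in cKOHet libraries. The groups were separate (log2 0.67, SE 0.16, limma adjusted p = 0.00792). Its exons overlap an opposite-strand RNA, Gm26720, over 22.4% of their length, and no source used here says whether reads were counted by strand. The other class IIa genes were Hdac5, at 269.5, 259.5 and 313 against 329, 335 and 389, without overlap but short of the threshold (log2 0.32, adjusted p = 0.147), and Hdac7, the most abundant of them per length, at 1495 ± 72.1 and 1359 ± 86.7 (log2 -0.14, adjusted p = 0.438). Hdac3, which encodes the catalytic subunit of the NCoR complexes, was at 360.0, 366 and 388 in controls and 278, 360 and 239 in cKOHet libraries. Its groups were separated only by the small gap between cKOHet replicate 2 and control replicate 1 (log2 -0.36, adjusted p = 0.134). The log2 difference was -0.52 without cKOHet replicate 2 (adjusted p = 0.0415), -0.23 without cKOHet replicate 4 (adjusted p = 0.372) and -0.20 in the libraries with Xist alone (adjusted p = 0.516). The class I genes Hdac1 and Hdac2 had log2 fold changes of 0.06 and 0.07 (adjusted p = 0.79 and 0.808), and the sirtuin gene Sirt1 was at 188 ± 25.5 and 245 ± 55.6 (adjusted p = 0.207).

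Of the 5 acetyltransferase genes, Kat2a fell and Ep300 was called higher. Kat2a (ENSMUSG00000020918, chromosome 11, 100704746 to 100712465), which encodes the SAGA complex enzyme GCN5, was at 372, 340 and 404 in controls and 300.1, 246.5 and 237 in cKOHet libraries, without overlap (log2 -0.51, SE 0.15, limma adjusted p = 0.0246). Dropping control replicate 1 or 4, or cKOHet replicate 2 or 4, lost this call (adjusted p 0.0717 to 0.0992, log2 -0.51 to -0.45), as did leaving out the mean-variance trend (adjusted p = 0.0778). Ep300 (ENSMUSG00000055024, chromosome 15, 81585351 to 81652077), the p300 gene, was at 686, 596 and 631 in controls and 720, 814 and 1225 in cKOHet libraries. The groups did not overlap, but cKOHet replicate 4 stood far above the other libraries, and the log2 fold change of 0.49 (SE 0.17, adjusted p = 0.0486) was 0.27 without it (adjusted p = 0.188). Dropping control replicate 1, 2 or 4, or cKOHet replicate 2, also lost the call (adjusted p = 0.0653, 0.139, 0.113 and 0.0586), as did 9 of the 15 other alternatives. Its paralog Crebbp followed the same order of cKOHet libraries, at 576, 623 and 863, with 576, 617 and 538 in controls (log2 0.23, adjusted p = 0.325). Kat2b, the PCAF gene, was at 196 ± 33.9 and 184 ± 5.17 (adjusted p = 0.83), and Kat6a at 1304, 1398 and 1278 against 1145, 1133 and 1787 (log2 -0.0025, adjusted p = 0.994).

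The remodeller genes were abundant and none was called. Smarca4, which encodes the SWI/SNF motor BRG1, was at 1295 ± 125 and 1510 ± 109 (log2 0.22, adjusted p = 0.213), and Arid1a, a subunit of the same complex, at 2468 ± 101 and 2822 ± 485 (log2 0.18, adjusted p = 0.381). Chd4, the motor of the NuRD complex, was at 3052 ± 452 and 2655 ± 469 (log2 -0.21, adjusted p = 0.363).

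**Figure D4:**
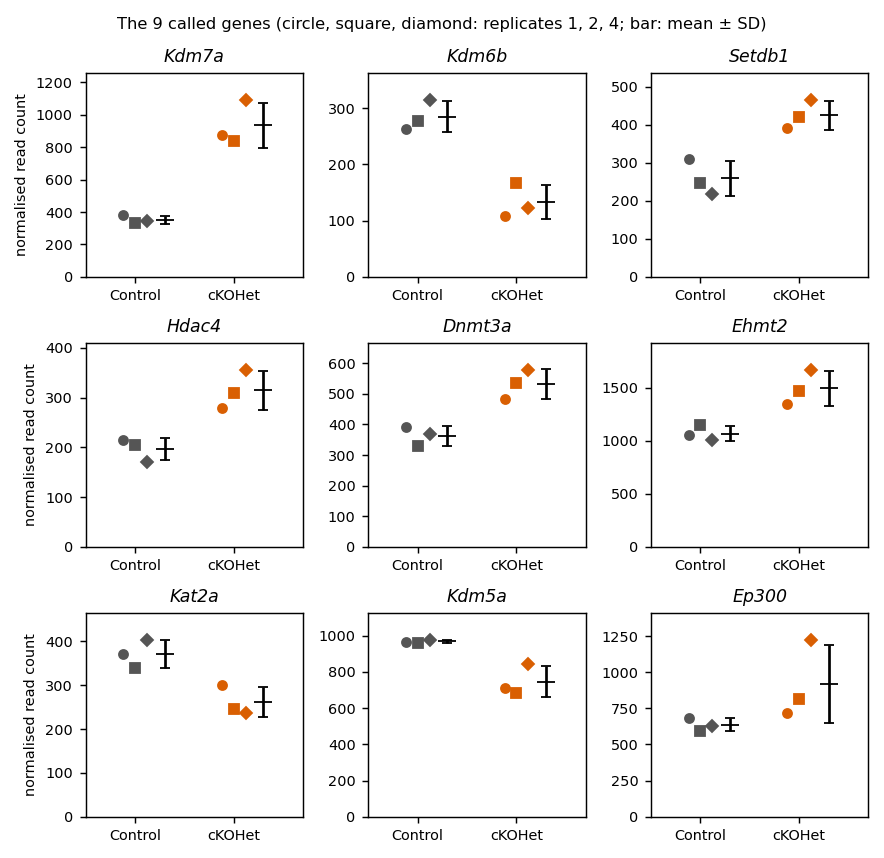
Normalised read count (y axis, from 0) of the 9 called genes in each library, ordered by adjusted p; circles, squares and diamonds are replicates 1, 2 and 4 and bars give the mean ± SD of 3 libraries. The groups are apart in all 9 panels, with the narrowest relative gaps in Ep300 and Kat2a and a single high diamond at 1225 in Ep300.

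Ratios of related genes within a library do not depend on the scaling between libraries, and 10 pairs were compared. With 3 libraries against 3, the smallest p an exact permutation test can give is 0.1, so none could pass. The ratio of Dnmt1 to Dnmt3a was 4.17 to 6.53 in controls and 2.79 to 3.03 in cKOHet libraries, a difference of -0.86 on the log2 scale. The ratio of Ehmt1 to Ehmt2 was 0.296 to 0.326 in controls and 0.184 to 0.198 in cKOHet libraries, a difference of -0.69 with little spread in either group (SD 0.072 and 0.051, n = 3). Kdm5a to Kdm5b was 1.98 to 2.49 in controls and 1.48 to 1.79 in cKOHet libraries (difference -0.41), and Ep300 to Crebbp 0.966 to 1.19 and 1.25 to 1.42 (difference 0.26). These 4 pairs did not overlap between groups (two-sided exact permutation p = 0.1, Benjamini-Hochberg adjusted p = 0.25 over the 10 pairs). Each of them holds a called gene (Dnmt3a, Ehmt2, Kdm5a or Ep300), so the ratios add no separate support for those calls. Of single genes tested, 35.8% did not overlap, and no such share was worked out for pairs over all genes. The other 6 pairs overlapped, among them Ezh2 to Ezh1 (0.415 to 0.659 and 0.38 to 0.575) and Hdac1 to Hdac2 (2.65 to 3.06 and 2.41 to 3.75).

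**Figure D5:**
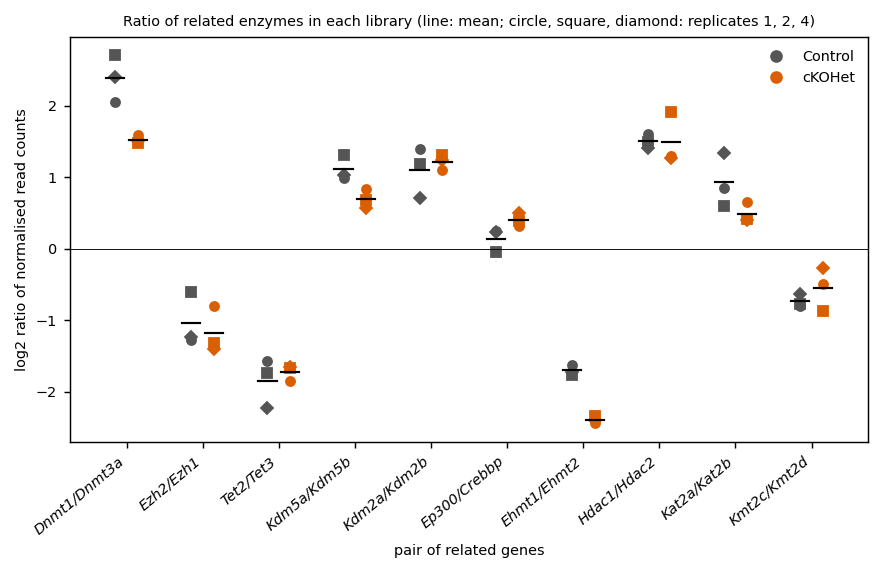
Log2 ratio of the normalised read counts of 10 pairs of related genes (x axis) in each Control (grey) and cKOHet library (orange); symbols are replicates 1, 2 and 4 and lines the means of 3 libraries. Dnmt1/Dnmt3a and Ehmt1/Ehmt2 are lower in every cKOHet library, by 0.86 and 0.69 between means.

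A further 169 chromatin genes outside the list were examined, of which 164 were found and 163 tested (Smarcd3 was too low), and Dnmt3l, Ezhip, Hr, Prmt1 and Hdac9 were not analysed here. Of these 19 rose and 11 fell, which is 18.4%, the same share as for the 49, beside 21.4% of all genes tested. By list the share called ran from 3.85% to 38.5%, on lists of 7 to 33 tested genes, and differences between lists were not tested. Among genes of DNA methylation and methyl-CpG binding, 4 of 13 rose and 1 fell. Dnmt3b, the second de novo methyltransferase gene, fell from 88.2 ± 6.07 to 42.0 ± 7.87 (log2 -1.07, limma adjusted p = 0.011), opposite in sign to Dnmt3a. Tdg, a glycosylase gene that removes oxidised methylcytosine, was called higher (log2 0.76, adjusted p = 0.034), but among single libraries left out the call held only for control replicate 2 (adjusted p 0.0503 to 0.156 and log2 0.53 to 0.83 for the other 5).

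Of 27 Polycomb subunit genes outside the list, 2 rose and 4 fell. Epop, an accessory subunit gene of Polycomb repressive complex 2, fell from 102 ± 27.1 to 25.9 ± 13.1 (log2 -2.03) and Phf1, another accessory gene, from 852 ± 116 to 577 ± 49.9 (-0.56). Pcgf3, a gene of Polycomb repressive complex 1, rose from 79.5 ± 34.3 to 157 ± 33.9 (log2 1.02), a call lost when control replicate 2, control replicate 4 or cKOHet replicate 4 was dropped (adjusted p = 0.0645, 0.0708 and 0.0893). Of 26 lysine methyltransferases and partners only Nsd2, an H3K36 dimethylase gene, was called. It was at 392.3, 501 and 303 in controls and 482, 561 and 651 in cKOHet libraries, with overlapping groups (log2 0.52, adjusted p = 0.0474). Dropping control replicate 1 or 4 or cKOHet replicate 2 or 4 lost this call (adjusted p 0.0978 to 0.215), and the log2 difference was 0.34 when control replicate 4 was the one dropped. It was 0.31 after correction for GC content and length (adjusted p = 0.181) and 0.23 in the libraries with Xist alone (adjusted p = 0.423), and the call was kept in 7 of the 21 alternatives.

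Of 16 other demethylases and their partners, 3 rose and 2 fell. Riox2 (192 to 217 in controls, 334 to 389 in cKOHet libraries) rose by 0.83 on the log2 scale and Rcor3, a gene of the CoREST family that partners LSD1, from 66.0 ± 7.64 to 151 ± 8.65. Kdm4d was low and fell, from 25.3 ± 7.43 to 2.36 ± 2.51 (log2 -3.17, adjusted p = 0.00192). It passed the filter on low values only through the controls, where it was high, and its log2 difference was -2.06 with a pseudocount of 5 and -3.47 with 0.5. Of 7 arginine methyltransferases, Prmt2 rose from 87.6 ± 6.99 to 203 ± 37.5 and Prmt5, the main symmetric dimethylase gene, fell from 439 ± 32.6 to 299 ± 21.9. Of 23 other deacetylases and corepressors, 5 rose and 2 fell: the NCoR complex gene Tbl1xr1 rose from 681 ± 43.4 to 1104 ± 141, the sirtuin gene Sirt2 from 497 ± 52.1 to 810 ± 141, and the Sin3 complex gene Sap30, which passed the filter only through the cKOHet libraries, from 8.02 ± 5.34 to 40.7 ± 5.95. Of 18 acetyltransferases and bromodomain readers, 2 rose and none fell. Kat6b, the paralog of Kat6a, rose from 183 ± 9.90 to 384 ± 66.5 (log2 1.05, adjusted p = 0.000222) while Kat6a was not called. Ncoa1 also rose (log2 0.63), and its call was lost when control replicate 1 (adjusted p = 0.138, log2 0.49) or cKOHet replicate 4 (adjusted p = 0.153, log2 0.41) was dropped. Of 33 remodellers, the CHD-family gene Chd7 fell from 461 ± 71.3 to 204 ± 6.37 (log2 -1.16, adjusted p = 5.31e-05), Chd9 rose from 325 ± 52.7 to 533 ± 88.1 (log2 0.71, adjusted p = 0.00445), and 31 were not called.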

How the data were processed

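Per the labels, RNA was extracted from sorted liver iNKT1 cells (RNeasy mini) and made into RNA-seq libraries (Ovation Ultralow), 3 per group. The values deposited by the authors are a signal, namely read counts per gene scaled between libraries. Trimmomatic 0.33, STAR, HTSeq 0.6.1, DESeq2 and mm10 appear in the submitters' processing notes, while settings, annotation release and strand use do not. The values are not whole (0.164% lie within rounding of a whole number), so original depth and counts are unknown and no count model was run.

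Symbols and positions came from GENCODE M21 (GRCm38), which named 12870 of 12942 identifiers. The 11226 genes that reached 10 in 3 or more of the 6 libraries were analysed as log2(value + 1), which understates changes of low genes, with limma 3.58.1 in R 4.3.3 (mean-variance trend), adjusting p-values over all of them by Benjamini-Hochberg; levels are mean ± SD. All 49 genes passed this filter. The 49 genes and all lists were chosen with earlier results of these data known. Every one of the 49 is reported; of each further chromatin list, the 3 called genes with the smallest adjusted p are named, except 1 gene that is not reported here, and Mcm4, Cdt1, Egr1, Nr4a1 and Jund were named after their values were seen. No label says that the libraries come from separate mice. The p-values therefore rest on library-to-library spread that may be technical. On simulated data (11226 genes, 200 changed, dispersion 0.02), the procedure recovered 38.8% of 1.5-fold, 95.2% of 2-fold and 100% of 4-fold changes, with 4.03% false calls. Alternatives covered pseudocount, filter, scaling, variance model, replicate block, Xist, GC content and length, threshold and each library left out.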

Additional observations from a re-analysis of the deposited data

How the results depend on the processing

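No called gene of the 49 changed sign under any of the 21 alternatives, 20 of them planned and 1 (the libraries with Xist alone) chosen after seeing the data. The main counts were 2407 genes called in all, 6 of the 49 higher and 3 lower, and 19 further chromatin genes higher and 11 lower. Without the mean-variance trend these were 1670, 3, 1, 8 and 5. At a threshold of 0.01 they were 1476, 5, 1, 9 and 6. In the libraries with Xist alone they were 1674, 1, 2, 10 and 8. With each library left out in turn they ranged over 1883 to 2207, 5 to 7, 1 to 3, 9 to 16 and 8 to 13; 1 of the 49 was lower without control replicate 1 or 4, and of the further genes 12 rose without control replicate 1 and 9 without cKOHet replicate 4. The cause of these changes was not tested, beyond the smaller number of libraries. The replicate block gave 2412, 6, 3, 17 and 11. Same-numbered libraries had correlated deviations from their group means of 0.0917, 0.0878 and 0.0549 for replicates 1, 2 and 4, each the highest for its library, but below 0.1, so the numbers were not taken as pairs. Without X- and Y-linked genes these were 0.0809, 0.0767 and 0.0092. The block changed no call among the 49. No scaling moved the median of all genes by over 0.1. Depth is unknown, and with 3 libraries per group 38.8% of simulated 1.5-fold changes were recovered. That simulation changed 200 genes, against 2407 called here, so its recovery need not hold for these data.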
